A study of Rattus norvegicus with 88 samples.

Results

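Of the 17252 genes measured in the infralimbic cortex (IL) of Heterogeneous Stock (HS) rats, 7 form 3 sets in which a gene with a split, or bimodal, distribution over rats stands beside a more abundant partner. In each set the bimodal gene, called the first gene below, is near 0 in some rats and well expressed in others, and the partner is lower where the first gene is higher. Set 1 is ENSRNOG00000028543 and its partner ENSRNOG00000017895. Set 2 is ENSRNOG00000030704 and its partner ENSRNOG00000001738. Set 3 is ENSRNOG00000048456 and ENSRNOG00000048523, which hold identical values in all 81 rats, and their partner ENSRNOG00000032635. The identical pair is treated as 1 first gene below, except where it is entered as 2 rows and in counts out of 7 members, which enter both. The members were listed by identifier and had been picked from these same expression values, so the split, the shares and the fall of each partner are descriptions, given without a test.

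The expression table gives identifiers and no gene names. The study's supplement pairs ENSRNOG00000017895 with Eno1, an enolase, and no name is used here for the other 6 members. Enolase is the glycolytic enzyme that removes water from phosphoglycerate to make phosphoenolpyruvate, which pyruvate kinase then turns into pyruvate. Brain tissue runs glycolysis at a high rate, and enolase, triosephosphate isomerase and pyruvate kinase messages are abundant in cortex. Reads that match several genes are divided among them by RSEM, the program that made the counts, so in a family of closely related sequences the count of a gene is an estimate of its portion of shared reads.

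The IL is a medial prefrontal area, dissected here from both hemispheres of each rat, and every rat gave 1 library of polyadenylated RNA. HS rats are an outbred population bred from inbred founder strains, and all rats here were group housed and had met neither drugs nor behavioral testing. The 81 libraries came from 40 females and 41 males, with 16 rats in rat batch 2, 25 in batch 3, 24 in batch 4, 1 in batch 5 and 15 in batch 6. A further 7 of the 88 libraries described were marked by the authors as removed and were not analysed here. The order of the table's column names restarts, which divides the rats into 3 stretches of 22, 16 and 43 columns, and this is treated below as a possible technical batch. Depth, estimated from the steps between low values, was 5.99e6 reads in the shallowest library (male 14), 12.2e6 in the next and 17.6e6 in the median library. Values are adjusted counts, the estimated read counts after the authors' upper-quartile adjustment, and they sum to between 16.9e6 and 20.0e6 per library. Of 18 cell type markers listed for a check of the tissue, the sources paired 1 with an identifier: Neurod6, a marker of excitatory cortical neurons, had 1283 adjusted counts in the lowest rat, 1954 in the median rat and 2523 in the highest. Its log2 values had an r of -0.32 with ENSRNOG00000028543 and 0.33 with Eno1 over the 81 rats, or -0.36 and 0.30 after batch, sex and stretch, and its part in the results of set 1 was not tested. In bulk tissue, fewer cells of a type and less RNA per cell cannot be told apart.

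Each first gene was divided into a lower and an upper class of rats at the largest gap between its sorted log2 values. In set 1, ENSRNOG00000028543 had 8 adjusted counts in the lowest, 33.5 in the median and 102 in the highest of the 42 rats of the lower class. In the 39 rats of the upper class it had 3481 in the lowest, 4164 in the median and 9735 in the highest. No rat lay between 102 and 3481 counts, a gap of 5.08 on the log2 scale where the next largest gap was 0.42. All 42 rats of the lower class had counts above 0, and the highest of them was the shallowest library.

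In set 2, ENSRNOG00000030704 was listed at 0 in 29 of the 33 rats of the lower class, and the other 4 reached at most 34 adjusted counts. In the 48 rats of the upper class it had 321 in the lowest, 661 in the median and 1457 in the highest. The boundary lay in a gap of 3.202 on the log2 scale, and a gap of 3.00 separated the rats at 0 from those with a few counts. In set 3, ENSRNOG00000048456 was listed at 0 in all 20 rats of the lower class. Its upper class of 61 rats started at 8 adjusted counts and ended at 604, with a mean of 211 ± 128 (SD). The upper class of set 3 thus begins close to 0 and is spread widely, with a largest inner gap of 0.86, whereas the upper class of set 1 begins far above its lower class. A count of 0 allows an expected count of up to 3 reads, so a rat listed at 0 in set 2 or 3 may still express the gene at a low level.

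The partners were expressed in every rat. Eno1 had 4842 adjusted counts in the lowest, 12412 in the median and 17982 in the highest rat. ENSRNOG00000001738, the partner of set 2, had 1953, 4549 and 5631 in the lowest, median and highest rat, and ENSRNOG00000032635, the partner of set 3, had 2191, 3455 and 6514. Whereas the first genes spanned many log2 units, the residual SD of the log2 values after rat batch and sex was 0.40 for Eno1, 0.28 for ENSRNOG00000001738 and 0.19 for ENSRNOG00000032635, against 3.68, 4.47 and 3.15 for the first genes. Over the 13048 genes whose mean log2 value was 5 or more, the median was 0.19 and the third partner lay near it.

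Eno1 was lower in the upper class of its set. It had 14613 ± 1955 adjusted counts (mean ± SD, n = 42) in the lower class and 9703 ± 2317 (n = 39) in the upper class. Of the 39 upper-class rats, 30 lay below every rat of the lower class, and of the 42 lower-class rats, 22 lay above every rat of the upper class. With all stretches pooled, the classes therefore overlapped in Eno1 in the remaining rats, unlike in ENSRNOG00000028543, where the classes were cut not to overlap. Within each column stretch the classes did not overlap in Eno1. In stretch 1 the highest upper-class rat had 14594 adjusted counts and the lowest lower-class rat 14644. These values were 13178 and 15231 in stretch 2, and 10834 and 11619 in stretch 3.

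The partner of set 2 had 4943 ± 339 adjusted counts (n = 33) in the lower class and 3908 ± 725 (n = 48) in the upper class. Below the whole lower class lay 30 of the 48 upper-class rats, and above the whole upper class lay 12 of the 33 lower-class rats. The partner of set 3 had 4373 ± 656 (n = 20) in the lower class and 3548 ± 752 (n = 61) in the upper class. The overlap was widest here, since 18 of the 61 upper-class rats lay below the lower class and 0 of the 20 lower-class rats lay above the upper class. The rat with the highest count of ENSRNOG00000032635, male 38 with 6514, belonged to the upper class.

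**Figure D1:**
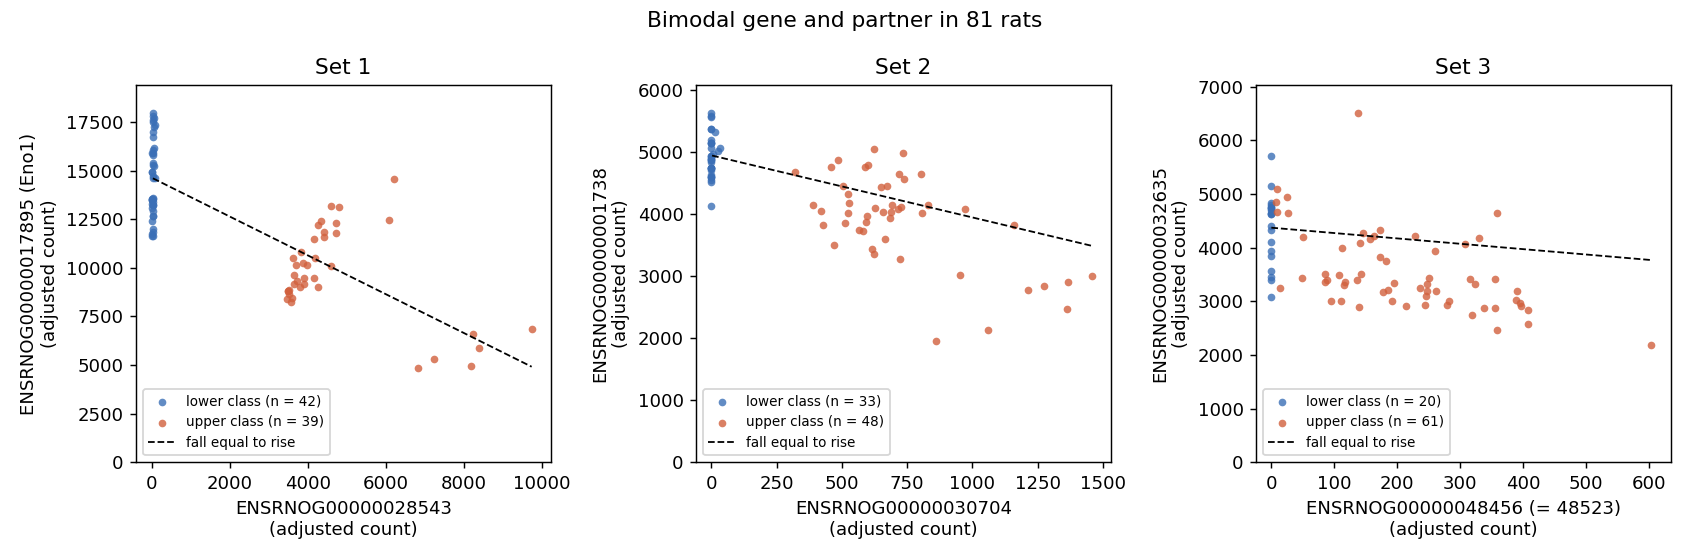
Adjusted count of the first gene (x axis) against that of its partner (y axis) in 81 rats, 1 panel per set, with the lower and upper class in blue and red and a dashed line where the partner would fall by exactly the rise of the first gene. In set 1 the red points lie in clouds around the dashed line that start at 3481 and at 6816 counts, in set 2 the rats at the right fall below it, and in set 3 most upper-class rats lie under it with a wide spread.

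The share of the summed adjusted counts that the first gene took was computed in each rat. In set 1 the share of ENSRNOG00000028543 was 0.244% ± 0.116 (SD, n = 42) in the lower class and 33.1% ± 11.2 (n = 39) in the upper class. The upper-class shares ran from 25.6% to 62.4% with a median of 28.6%, so in some rats the less abundant member of the set took the larger portion. In set 2 the share of ENSRNOG00000030704 was 0.0475% ± 0.148 (n = 33) and 16.2% ± 7.47 (n = 48), and it ran from 6.42% to 35.6% in the upper class. In set 3 the share of ENSRNOG00000048456 was 0% in the lower class and 6.01% ± 4.12 (n = 61) in the upper class, with a range of 0.165% to 21.6%. When the identical pair was entered as 2 rows, its upper-class share was 11.1% ± 7.10. Shares are ratios of estimated counts, so no counting interval is given for them.

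Shares in set 1 were not spread evenly within the upper class. The largest gaps between sorted shares were 24.9 percentage points, from 0.692% to 25.6%, and 22.8 points, from 32.8% to 55.6%, while the next was 3.63 points. Cutting at both gaps, a choice made after the shares were seen, left the 42 rats of the lower class as share class 1, 33 rats at 25.6% to 32.8% as share class 2 and 6 rats at 55.6% to 62.4% as share class 3. The mean share was 28.4% ± 1.80 in share class 2 and 58.6% ± 2.20 in share class 3. Share class 1 held 21 females and 21 males, share class 2 held 18 and 15, and share class 3 held 1 and 5. Rats of share class 3 came from batches 2, 3, 4 and 6, with 2, 1, 2 and 1 rats.

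From one share class of set 1 to the next, both genes moved by similar numbers of counts. ENSRNOG00000028543 had a mean of 36.02 adjusted counts in share class 1, 4128 ± 663 in share class 2 and 8098 ± 1019 in share class 3. Eno1 had 14613 ± 1955, 10425 ± 1664 and 5734 ± 849. The first step was a rise of 4092 ± 102 (SE) for ENSRNOG00000028543 and a fall of 4188 ± 426 for Eno1. The second step was a rise of 3969 ± 320 and a fall of 4691 ± 701. The sum of both genes was 14649 ± 1962, 14553 ± 2241 and 13831 ± 1770 (SD) in the 3 share classes, so differences between share classes in the sum were smaller than the spread between rats of a share class.

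**Figure D2:**
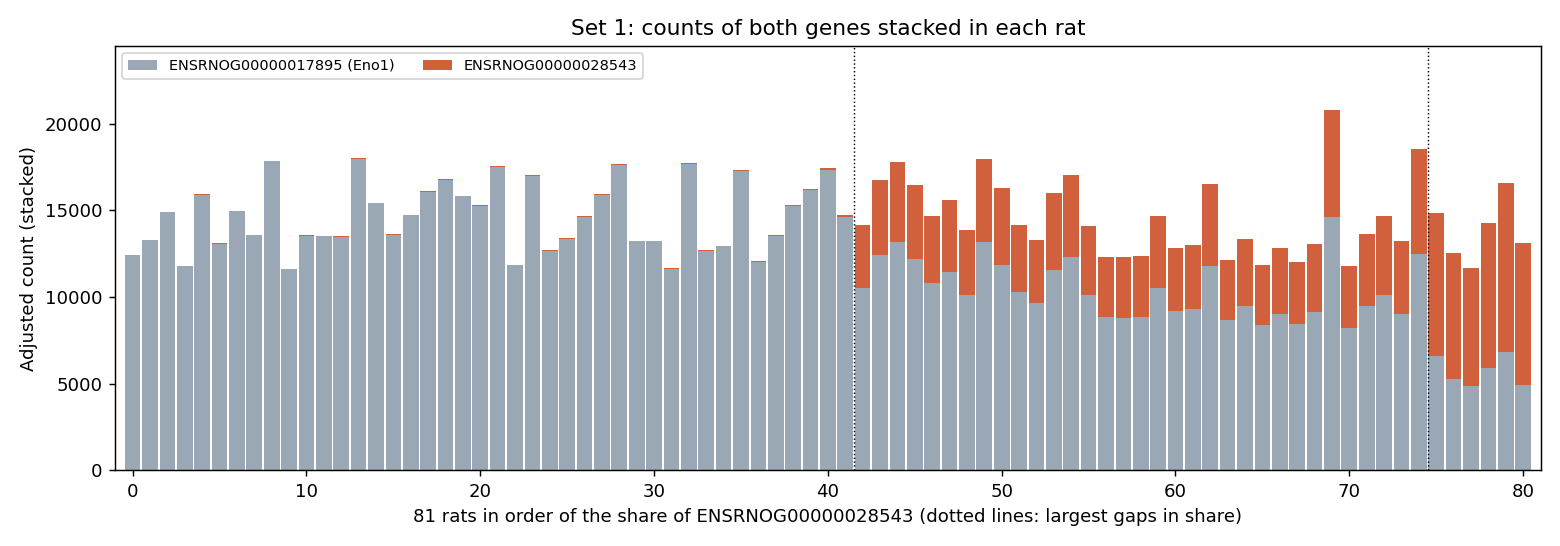
Adjusted counts of Eno1 (grey) and ENSRNOG00000028543 (red) stacked in each of 81 rats, ordered by the share of ENSRNOG00000028543, with dotted lines at the largest gaps in share. The red part is barely visible in 42 rats, takes 25.6% to 32.8% in 33 and 55.6% to 62.4% in 6, while the heights of the whole bars overlap between these groups of rats and are highest in male 38.

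Share classes 2 and 3 of set 1 hold rats in which the ratio of the genes is alike. A positive relation between the genes within these share classes therefore follows from the cut and is no result. In share class 1 the share ran from 0.0644% to 0.692%, so the ratio was less alike there. Over the 33 rats of share class 2, ENSRNOG00000028543 and Eno1 had a Pearson r of 0.82 and a Spearman rho of 0.85, and r was 0.82 without the 2 rats farthest from the median. Over the 42 rats of share class 1, r was 0.39 and rho 0.38. Over the 6 rats of share class 3, r was 0.80, which dropped to 0.41 without the farthest 2. In share class 2, male 38 was highest in both genes, with 6214 adjusted counts of ENSRNOG00000028543 and 14594 of Eno1. Female 35 followed with 6087 and 12474. Over all 39 upper-class rats, which span share classes 2 and 3, r was -0.44.

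The same cut was applied to set 2, where the largest gaps in share were 6.39 points, from 24% to 30.4%, and 5.75 points, from 0.667% to 6.42%. The next gap was 4.00 points, so the share classes of set 2 were less clearly apart than those of set 1. Share class 1 held the 33 rats of the lower class, share class 2 held 41 rats with a mean share of 13.5% ± 3.53, and share class 3 held 7 rats with 32.2% ± 1.84. ENSRNOG00000030704 had 638 ± 163 adjusted counts in share class 2 and 1227 ± 206 in share class 3, so its steps were 636 ± 28.4 (SE) and 589 ± 69.1. ENSRNOG00000001738 had 4943 ± 339, 4135 ± 480 and 2580 ± 408 in the 3 share classes, which are falls of 808 ± 99.0 and 1555 ± 192.7. The steps of the first gene were thus of similar size, and the second fall of its partner exceeded the first.

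The sum in set 2 was lower in share class 3, at 3807 ± 597 (n = 7), than in share class 2, at 4773 ± 477 (n = 41), or share class 1, at 4946 ± 340. All 7 rats of share class 3 were in batch 2 (4 rats) or batch 3 (3 rats), and in column stretches 1 (5 rats) and 2 (2 rats). Adjusted for rat batch, sex and column stretch, the step from share class 2 to share class 3 was a rise of 607 ± 82.1 (SE) and a fall of 1279 ± 188, so the fall still exceeded the rise. Within share class 2 of set 2, r between both genes was -0.19 and rho -0.08 over 41 rats. In set 3 the largest gap in share, 8.0 points, set apart 1 rat at 21.6%, and the next was 0.978, so no share classes were cut. Over the 61 upper-class rats of set 3, r between ENSRNOG00000048456 and its partner was -0.53 and rho -0.56, and over the 48 upper-class rats of set 2 the like r was -0.62.

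Whether the partner fell by as much as the first gene rose was taken from the class means. In set 1 the rise was 4703 ± 249 adjusted counts (SE) and the fall 4910 ± 475, which is 104% ± 9.81 of the rise. In set 2 the rise was 722 ± 46.9 and the fall 1035 ± 136, or 143% ± 15.5. In set 3 the rise was 211 ± 28.7 and the fall 825 ± 188, or 391% ± 79.3. The fall thus matched the rise within its error in set 1 and was larger than the rise in sets 2 and 3 by more than 2 SE.

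Adjustment for rat batch, sex and column stretch left set 1 at 99.3% ± 5.51 and set 2 at 146% ± 13.8, but set 3 moved to 172% ± 70.2. With the identical pair entered as 2 rows, set 3 was at 195% ± 39.6, and at 86.0% ± 35.1 with that adjustment as well. The value of set 3 hence depended on both choices, and after adjustment its error was too large to separate it from 100%. Within rat batches, set 1 gave 107% in batch 2, 87.5% in batch 3, 105% in batch 4 and 96.9% in batch 6. Set 2 gave 204% ± 30.1, 150% ± 22.3, 88.9% ± 23.7 and 178.6% ± 26.8 in the same batches, so in batch 4 the fall did not exceed the rise. Rats of share class 3 were absent from batch 4 and also from batch 6. Set 3 gave 57.6% ± 336 in batch 2, 308% ± 95.6 in batch 3 and 146% ± 81.8 in batch 6, and batch 4 held 1 lower-class rat and gave no value.

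**Figure D3:**
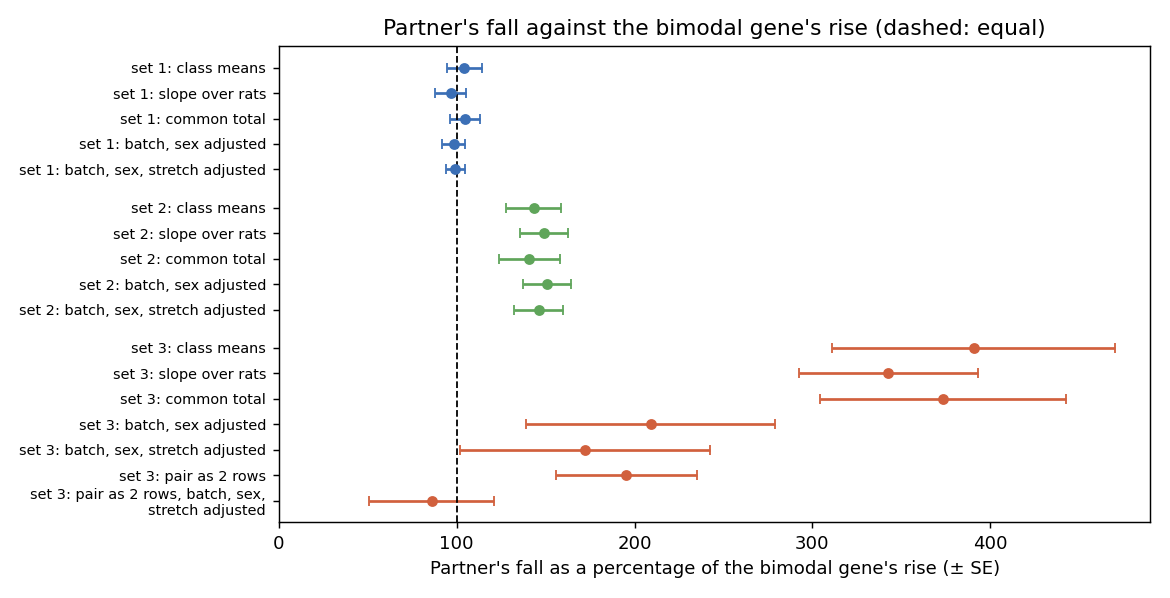
Fall of the partner as a percentage of the rise of the first gene (x axis, points with ± SE) under each way of computing it (y axis), with a dashed line at 100%. Set 1 stays between 96.7% and 105%, set 2 between 141% and 151%, and set 3 runs from 86.0% to 391%.

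Sums varied less over rats than either member did. After rat batch and sex, the residual SD of the log2 sum was 0.12 for set 1, 0.15 for set 2 and 0.16 for set 3, or 0.15 with the identical pair as 2 rows. For set 1 that is lower than the 0.40 of Eno1 alone, and among the genes of mean log2 at least 5, 91.1% had a smaller SD than Eno1 and 16.6% had a smaller SD than the sum. For set 2 the SD went from 0.28 for the partner to 0.15 for the sum. The median over the 1519 genes within 1 log2 unit of the sums, pooled over the 3 sets, was 0.12. The sum of set 1 lay near this median and the sums of sets 2 and 3 lay above it.

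Sex was not used in choosing the members and could be tested. In limma, with rat batch as a covariate and Benjamini-Hochberg adjustment over all genes, 0 of the 7 members were called between the sexes, where 0.197% of all genes were called. An unadjusted p below 0.05 was found for 0 of 7 members and for 1339 of all 17252 genes. Adjusted p ran from 0.888 for ENSRNOG00000030704 to 0.994 for ENSRNOG00000048456. ENSRNOG00000030704 had the largest estimate, a male minus female difference of -0.92 ± 0.99 (SE) on the log2 scale, and Eno1 had -0.05 ± 0.09. Of the 3 sums, 0 were called, and the difference in the log2 sum of set 1 was 0.01 ± 0.03. Upper-class rats made up 47.5% of females and 48.8% of males in set 1 (Fisher's exact test, two-sided, p = 1), 62.5% and 56.1% in set 2 (p = 0.653), and 77.5% and 73.2% in set 3 (p = 0.798). After adjustment over the 3 sets each of these p-values was 1.

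Between rat batches 2, 3, 4 and 6, limma called 5 of the 7 members with sex as a covariate, where 57.6% of all genes were called. The members called were the 3 partners and the identical pair, with adjusted p of 7.73e-04 for Eno1, 0.00702 for ENSRNOG00000001738, 2.73e-14 for ENSRNOG00000032635 and 0.00223 for the pair. ENSRNOG00000028543 (adjusted p = 0.798) and ENSRNOG00000030704 (0.185) were not called. A share of this size is near that of all genes, so it says nothing particular of the members. With column stretch as a further covariate 0 of 7 were called, where 2.76% of all genes were. Batches 4 and 6 lay wholly in stretch 3 and 15 of the 16 rats of batch 2 in stretch 1, while batch 3 had 7, 15 and 3 rats in the 3 stretches. Between stretches given batch, 0 of 7 members were called against 16.8% of all genes, and of the 3 sums that of set 1 was called (adjusted p = 8.43e-04), with mean log2 values of 13.95, 14.05 and 13.66 in the 3 stretches.

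Eno1 had a mean log2 value of 13.60 ± 0.48 (SD) in batch 2, 13.77 ± 0.32 in batch 3, 13.32 ± 0.42 in batch 4 and 13.33 ± 0.36 in batch 6. The log2 sum of set 1 had 13.93 ± 0.16, 13.99 ± 0.14, 13.68 ± 0.10 and 13.61 ± 0.07, so batches stood farther apart, relative to their spread, in the sum (adjusted p = 9.76e-15) than in Eno1 alone. With column stretch as a covariate the call was lost in the sum (adjusted p = 0.447) as in Eno1 (0.892). ENSRNOG00000032635 had 12.08 ± 0.24 and 12.07 ± 0.21 in batches 2 and 3, and 11.58 ± 0.16 and 11.64 ± 0.15 in batches 4 and 6. ENSRNOG00000001738 went the other way, with 11.84 ± 0.41, 12.03 ± 0.31, 12.18 ± 0.15 and 12.10 ± 0.23. The sums of sets 2 and 3 were also called between batches, with adjusted p of 2.08e-04 and 1.26e-14, which became 0.390 and 0.654 with stretch as a covariate. All 3 sums were thus called where 57.6% of all genes were, and 0 of 3 with stretch.

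Membership of the classes did not differ detectably between these batches in set 1 (permutation test of the class by batch table, p = 0.662, adjusted over the 3 sets 0.662) or set 2 (p = 0.327, adjusted 0.491). In set 3 it did (p = 0.0165, adjusted 0.0495). Upper-class rats of set 3 made up 62.5% of batch 2, 60.0% of batch 3, 95.8% of batch 4 and 80.0% of batch 6. By column stretch they made up 59.1%, 56.3% and 90.7% of rats, and within batch 3 they were 3 of 7, 9 of 15 and 3 of 3 rats in the 3 stretches. When batch labels were permuted within stretches, a test added after seeing the data, p was 0.604 in set 3. Batches 4 and 6, with more upper-class rats of set 3, were also those with the lower levels of its partner.

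**Figure D4:**
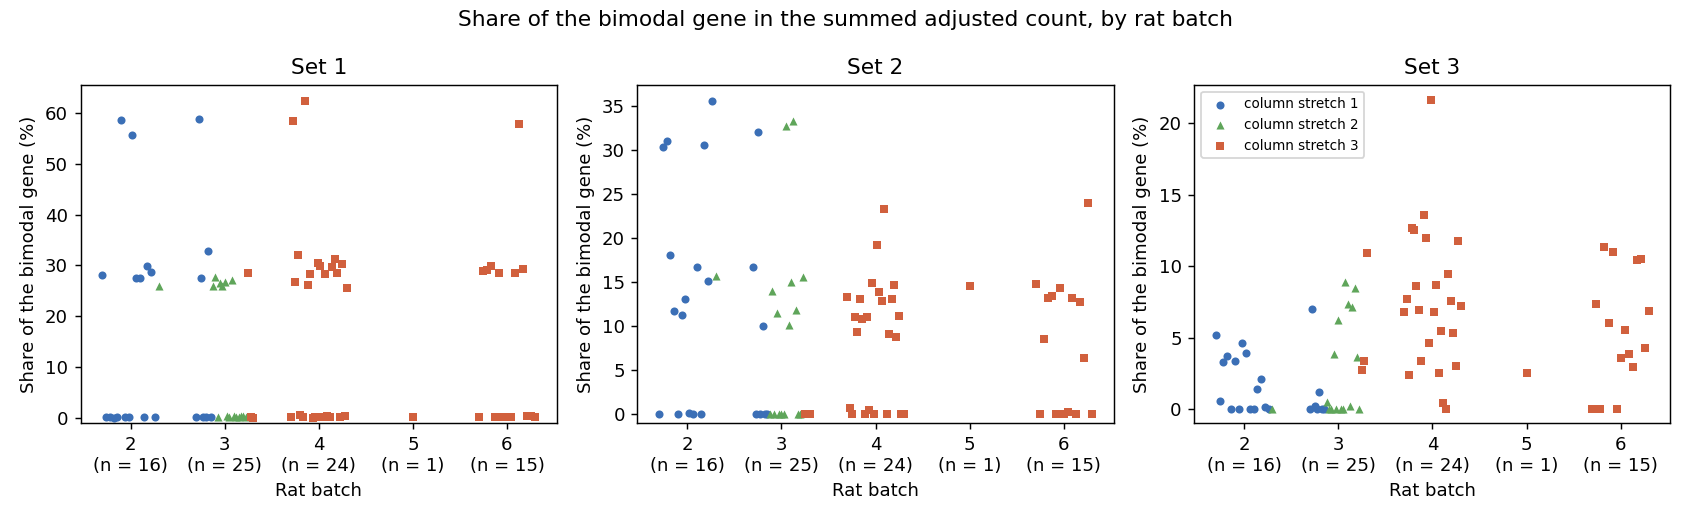
Share of the first gene in the summed adjusted count (y axis, %) of each rat by rat batch (x axis), 1 panel per set, with the marker giving the column stretch. Rats of all 3 share levels of set 1 are found in batches 2, 3, 4 and 6, rats above 30% in set 2 are in batches 2 and 3, and 95.8% of rats in batch 4 have a share above 0 in set 3.

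The sets were not split alike. Of the 39 upper-class rats of set 1, 21 were in the upper class of set 2, which is 53.8% of the upper class of set 1 and 43.8% of that of set 2. Among the lower-class rats of set 1, 64.3% were in the upper class of set 2. Of the 39, 31 were in the upper class of set 3 (79.5%, and 50.8% of the upper class of set 3), against 71.4% of the lower class of set 1. Sets 2 and 3 shared 35 upper-class rats, 72.9% and 57.4% of their upper classes. Among the 6 rats of share class 3 in set 1, 5 were in share class 1 of set 2 and 1 in share class 2. Dependence between sets was not tested.

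Genes whose pattern over the 81 rats was most like that of a member were sought by Pearson r of log2 values among the genes of mean log2 at least 5. For ENSRNOG00000028543, Eno1 had the lowest Pearson r of all genes (-0.72), followed by Vamp3 (-0.65), which encodes a vesicle SNARE protein, and Nmnat1 (-0.62), which encodes a nuclear enzyme of NAD synthesis. The highest r outside the set were 0.40 for Slc2a5, which encodes a fructose transporter, and 0.34 for ENSRNOG00000032798. For ENSRNOG00000030704, its partner also had the lowest r of all genes (-0.62), and the next was -0.42. For ENSRNOG00000048456 the partner had the lowest r (-0.58) and the next was -0.54. By Spearman rho, Nmnat1 (-0.63) was below Eno1 (-0.59) for ENSRNOG00000028543. For Eno1 the highest r were 0.62 for Vamp3 and 0.55 for ENSRNOG00000011782, and the lowest outside the set were -0.55 for ENSRNOG00000058510 and -0.54 for ENSRNOG00000061080. Of the other partners, ENSRNOG00000001738 was most like Ksr2 (0.69), which encodes a scaffold of the MAP kinase cascade, and ENSRNOG00000032635 most like Ndufb2 (0.88), which encodes a subunit of respiratory complex I. Correlations of this size are common in these libraries: over 13048 genes the median of each gene's lowest r was -0.69, and 41.2% of genes had a lower one than ENSRNOG00000028543, 66.9% a lower one than ENSRNOG00000030704 and 74.1% a lower one than ENSRNOG00000048456.

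Vamp3 had 592 ± 49.1 adjusted counts in share class 1 of set 1, 513 ± 55.5 in share class 2 and 478 ± 34.6 in share class 3. Nmnat1 had 216 ± 27.7, 183 ± 21.9 and 151 ± 18.4, and Slc2a5 had 106 ± 29.02, 124 ± 25.4 and 142 ± 34.8. The means of these genes lay far fewer counts apart than those of Eno1. Eno1 was also far more abundant, so this does not compare relative changes. Values of Vamp3, Nmnat1 and Slc2a5 overlapped between share classes. In the order of protein-coding genes of the GRCr8 assembly (RefSeq), which serves here for neighbours alone, all 3 are on the chromosome of Eno1, with 3 genes between Eno1 and Slc2a5, 7 between it and Vamp3 and 14 between it and Nmnat1. Of 22 genes with a name that lie within 50 protein-coding genes of Eno1, 3 had an absolute r of at least 0.3 with ENSRNOG00000028543, compared with 9 of 2258 on other chromosomes (0.399%). For ENSRNOG00000030704 the numbers were 0 of 22 and 9 of 2258, and for ENSRNOG00000048456 they were 1 of 22 and 228 of 2258. Both limits were chosen after the values were seen, and no test was run. The names come from genes the study selected, partly for a level linked to nearby variants.

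Of the 18 glycolysis genes listed, 6 were paired with an identifier, and they were compared with set 1 because its partner is an enolase. Between the sexes 0 of 6 were called in limma, where 0.197% of all genes were. Between rat batches 4 of 6 were called, namely Eno1, Eno2 (the neuronal enolase), Tpi1 (triosephosphate isomerase) and Pkm (pyruvate kinase), where 57.6% of all genes were called. With column stretch as a covariate 0 of 6 were called between batches, with adjusted p of 0.0995 to 0.892, where 2.76% of all genes were called. Between stretches given batch, limma called Tpi1 (adjusted p = 0.00431), Eno2 (0.00621) and Pkm (0.0244), where 16.8% of all genes were called. Eno1, Hk2 and Eno3 were not called between stretches. Pkm had 14293 adjusted counts in the lowest, 18595 in the median and 26088 in the highest rat. Eno2 had 18567, 20952 and 25224, and Tpi1 had 13632, 16524 and 22365. Hk2 (a hexokinase) and Eno3 (the muscle enolase) were low, with medians of 121 and 91.0. In the share classes of set 1, Pkm had means of 18826 ± 2082, 18966 ± 2550 and 18947 ± 2462, and so differed between them by less than their spread. Eno1, Eno2 and Eno3 are close relatives, so reads may have been divided among them by estimate, and their separate levels are uncertain to that degree.

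Within each share class, rats with more Eno1 had more Pkm: on the log2 scale r was 0.90 over 42 rats (rho 0.92), 0.89 over 33 (rho 0.90) and 0.97 over 6 (rho 0.94). Share classes were shifted against each other in this relation when Eno1 was taken alone, and lay on 1 band when the sum of set 1 was taken. Over all 81 rats r between Pkm and the sum was 0.91 and rho 0.93, and r was 0.91 without the 2 rats farthest from the median. For Eno2 it was 0.82 (rho 0.81) and for Tpi1 0.73 (rho 0.70). Ordered by r with the sum among the 13048 genes of mean log2 at least 5, Pkm was number 13, Eno2 number 286 and Tpi1 number 910. Many genes thus followed the sum more closely than Eno2 and Tpi1 did, and few more closely than Pkm. After adjustment for batch, sex and stretch, r with the sum was 0.73 for Pkm, 0.57 for Eno2 and 0.59 for Tpi1, compared with 0.09, 0.17 and 0.27 for Eno1 alone. Hk2 had r of -0.07 and Eno3 of 0.02 with the sum. The comparison of the sum with these genes was chosen after values had been seen, and no test was run. Part of it rests on differences between batches and between column stretches that Pkm, Eno2 and Tpi1 share with the sum.

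**Figure D5:**
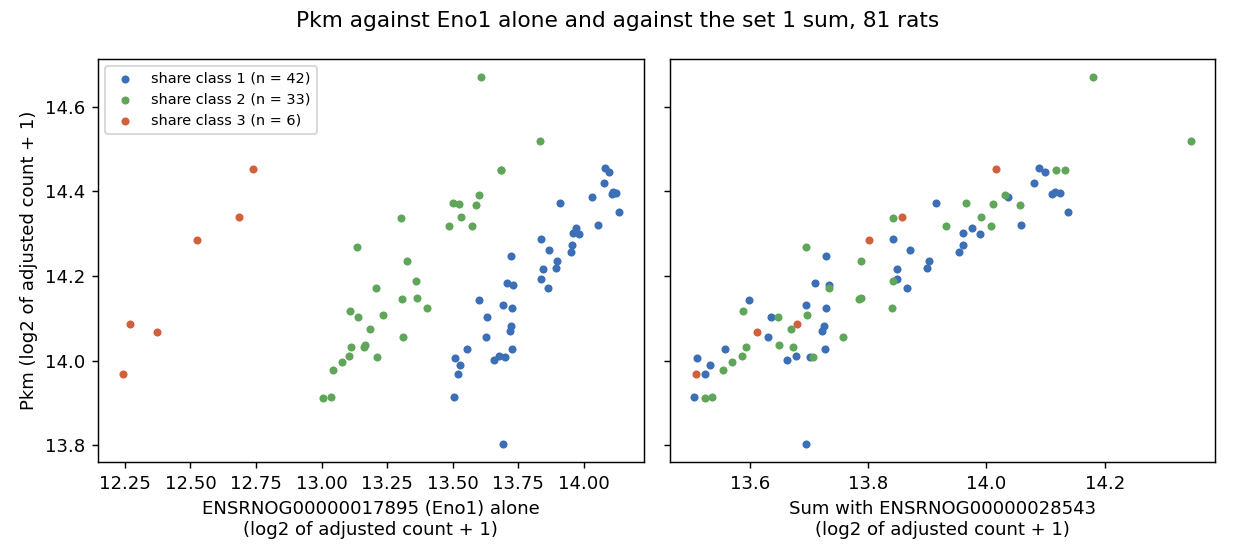
Log2 adjusted count of Pkm (y axis) against Eno1 alone (left) and against the sum of set 1 (right, both x axes log2 of adjusted count plus 1) in 81 rats, coloured by share class of set 1. On the left the 3 share classes form separate bands, and on the right they overlap in 1 band with r of 0.91.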

How the data were processed

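Per the labels and the study's methods, the authors trimmed reads with cutadapt, estimated read counts per gene with RSEM on the Ensembl rat transcriptome (Rnor_6.0), applied an upper-quartile adjustment with DESeq2, removed genes with few reads and 7 libraries, and deposited log2 values of the adjusted count plus 1; tool versions are not given in the sources used here. Values were turned back to adjusted counts, of which 100.0% of those under 100 were whole within 0.001 of the value. Because they are rounded and adjusted, no count model was used. Sex and batch came from the labels, and columns were matched by title with 0 left over. Stretches were defined by restarts in the alphabetical order of column names. Replicate numbers only name rats. No label ties rats to a litter, so p-values measure the spread between these rats. Counting intervals cover counting error only and were not used.

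The members and gene lists were chosen with earlier results of these data known. Log2 values of all 17252 genes were fitted with limma 3.58.1 (R 4.3.3; eBayes with an intensity trend; Benjamini-Hochberg threshold 0.05); the 1 rat of batch 5 was left out of batch tests. Sums per set were added as rows of the table. Classes were compared with sex by Fisher's exact test and with batch by 100000 permutations (scipy 1.17.1). Named genes were the members, the 2 genes with the highest and the 2 with the lowest Pearson r for each, given in full for set 1, and the glycolysis list. Depth is the adjusted total divided by the estimated number of adjusted counts per read. The limma fits and the depth estimate were tested on simulated data. The values simulated for limma were normal, so that check does not cover the split distributions of the first genes. The reference matched 0 of the table's identifiers, so the names used come from the study's supplement, which covers genes the study selected. It lists genes whose level or splicing the study linked to nearby variants, and genes it ranked as most tissue-specific. Sequences of the members were not analysed here. Alternatives were a mixture model for the classes, classes on residuals, summed ratios, a filter at a mean log2 of 5, no trend, a pseudocount of 10, median centring, other covariates, leaving out a batch, and leaving out the shallowest library.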

Additional observations from a re-analysis of the deposited data

Results flagged for a closer look

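Within each sex and rat batch of 4 to 10 rats, the highest and the lowest values of the partner and the sum of each set were compared with the rest of the group by Dixon's criterion. In 2 of 18 combinations of group and measure a value lay far from the others. The criterion's rate of about 1 in 20 is for independent values from 1 normal distribution. It does not hold here, since partners differ between classes and each sum contains its partner. Female 1 of batch 2 had 12207 adjusted counts of Eno1, the lowest of 4 females, when the nearest of the others had 14644, a gap of 0.900 of the whole range. The same rat had the highest sum of set 1 among the 4, 16474 with the nearest at 14930, a gap of 0.861 of the range. It had 4267 counts of ENSRNOG00000028543 and was in share class 2 and column stretch 2, while the other 3 females of the batch were in share class 1 and column stretch 1. In limma, 0 of 7 members had a sex difference that differed between batches (lowest adjusted p = 0.996, a test added after seeing the data). The same test called 0 of all 17252 genes, so this says nothing particular of the members.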

How the results depend on the processing

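Of the recomputed summary values, 66 were labelled as kept, 10 as moved and 1 as weaker. Kept meant within the spread, on the same side of the threshold or, for counts, within a set ratio of the main count. By that ratio a lower class of 24 rats in set 3 under the mixture model was kept against 20. With column stretch as a covariate, 0 members and 0 sums were called between rat batches, where 2.76% of all genes were. With rat batch left out, 5 members were called between stretches, where 61.4% of all genes were. The fall of the partner in set 3 was 209% after adjustment for batch and sex, 172% with stretch added, 195% with the identical pair as 2 rows and 86.0% with both, and the upper-class share of set 3 was 11.1% as 2 rows. Class by batch in set 3 gave p = 0.604 with labels permuted within stretches. Of the 24 pairs of a member and a gene named for likeness, 7 were also named with Spearman rho and 9 with residuals after batch and sex. Among values of single genes and single sums, 159 stayed on the same side of the threshold, 5 became stronger and 8 weaker, with the identical pair entered as 2 genes. Reversals of sign were not assessed, since no sex difference was called and the batch and stretch tests give no sign. The uncalled sex difference of ENSRNOG00000048456 was 0.07 in the main fit and -0.07 with column stretch as a covariate. In set 3 a mixture model placed 77 of 81 rats in the same class, against 81 of 81 in sets 1 and 2. The cause of these changes was not tested. Depth limits what can be said of rats listed at 0, and the error of RSEM's division of shared reads is not in the values. No paired analysis was possible because the IL table holds 1 library of each rat and the replicate numbers are names alone.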
